A study of Mus musculus with 18 samples.

Results

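The small RNA table of mouse brain cell fractions held 9989 rows that the authors typed as processed pseudogenes, among 203513 rows in all. The 87 rows described here reached 5 counts in 6 or more of the 18 libraries, and names starting with Rpl or Rps and a digit, which mark ribosomal protein copies, or with mt- were left out by the rule. No row was lost to that name filter, because none of the 293 Rpl and Rps rows met the count rule. The members were thus chosen by their counts over all libraries, the level of a member as such is no finding, and most of the type was near empty, since 3114 of the 9989 rows had any count. Brains came from mice at 10 months of age on a C57BL/6 background, either wild type (WT) or homozygous for Atxn2-CAG100-KIN (KIN), in which the mouse Atxn2 gene carries an expanded CAG repeat as in spinocerebellar ataxia. In the study's protocol, magnetic beads took microglia by CD11b, then astrocytes by ACSA-2, and neurons were left in the flow-through after other cells had been bound, so the fractions came in sequence from a brain; the mice were of both sexes, which the labels do not assign to libraries. Per the study's methods, KIN mice were paired with WT littermates of like sex, and each brain gave all of its fractions. Which libraries form a pair or share a brain is not in the labels. The main tests therefore treated all libraries as independent. The 6 groups (astrocytes, microglia and neurons of either genotype) had 3 libraries each, with 1211118 to 4316748 counts per library. The members took 0.0341% to 0.228% of the counts of a library, 55982 counts in all.

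A processed pseudogene is a copy of a messenger RNA that was reverse transcribed and inserted into the genome, so it lacks introns and often ends in a run of A left from the poly(A) tail. The enzyme that makes such copies is encoded by the long interspersed element L1, a retrotransposon whose second open reading frame holds an endonuclease and a reverse transcriptase and which also copies its own RNA. Because the copies resemble their source, short reads of a gene, of an L1 element or of a plain run of A can be placed on a pseudogene row without coming from that locus. A piRNA is a short RNA bound by PIWI proteins, best known in the germ line, where many piRNAs match transposons.

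Read by sequence, the 87 members were few kinds of thing. Their sequences were taken from the GENCODE vM39 transcripts of GRCm39, in which all 87 were found, and the sets below were drawn up from those sequences after the counts had been seen. The largest set in rows was of 51 members with a sequence in common, called the L1 set here, because an open frame with the catalytic motif of reverse transcriptases was found in 20 of its 51 rows and in none of the other members. The name comes from general knowledge of that protein, and no library of repeats was used. A second set of 23 members held a window of 25 bases with at least 23 A, or 23 T on the other strand, and is called the A-tract set; Gm43960 in it also resembled the L1 set. Gm12895 and Gm12896 were near-identical short rows, Gm43841 was a nuclear copy of mitochondrial DNA, and 10 members belonged to none of these. By counts the order was another, with 45.0% of the members' counts on Gm12895 and Gm12896, 29.6% on the A-tract set, 16.7% on the L1 set, 6.56% on Gm43841 and 2.18% on the rest.

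The L1 set is shown first, since its rows carried nearly all the differences between genotypes. Of its 51 members, 33 shared a window of 30 bases, which 44 rows of the whole table held.
Gm42927, chr3:120531944-120531973, minus strand of GRCm39: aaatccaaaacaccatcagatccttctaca
Extended to 60 bases, the same stretch shows how little the rows differ, with capitals at the bases that depart from Gm48128.
Gm48128, chr10:49703602-49703661, plus strand: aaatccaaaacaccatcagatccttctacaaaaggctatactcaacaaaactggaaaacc
Gm47036, chr12:43798792-43798851, plus strand: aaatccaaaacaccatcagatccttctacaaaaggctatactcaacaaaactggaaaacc
Gm48270, chr10:50133008-50133067, plus strand: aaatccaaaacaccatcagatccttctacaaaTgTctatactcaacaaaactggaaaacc
Gm49273, chr15:103567503-103567562, plus strand: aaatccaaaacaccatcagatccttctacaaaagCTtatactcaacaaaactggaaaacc
Gm48128 and Gm47036 lie on different chromosomes and are the same over these 60 bases, so a read from here has no single place.

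Entries of the piRNA table with L1 sequence are shown because they were counted apart from the pseudogenes, in an earlier round of read placement. The first and second were found in the sense direction in 17 and 26 rows of the L1 set, and the third in the antisense direction in 26 of them.
mmu-piR-19115: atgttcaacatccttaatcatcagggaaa
mmu-piR-30818: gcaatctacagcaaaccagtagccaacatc
mmu-piR-10145: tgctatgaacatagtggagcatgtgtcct

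The A-tract set is shown by its longest single-base run in capitals with the bases on either side, for the members with the 3 longest runs and for Gm11225, whose run is the shortest and is interrupted.
Gm43960, chr6:10807370-10807460, plus strand: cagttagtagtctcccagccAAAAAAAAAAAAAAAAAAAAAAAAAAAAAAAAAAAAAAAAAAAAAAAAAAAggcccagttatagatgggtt
Gm19087, chr1:150983874-150983959, plus strand: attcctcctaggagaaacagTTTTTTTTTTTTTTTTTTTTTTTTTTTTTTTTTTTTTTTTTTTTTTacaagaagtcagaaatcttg
Mrpl23-ps1, chr2:74421674-74421735, minus strand: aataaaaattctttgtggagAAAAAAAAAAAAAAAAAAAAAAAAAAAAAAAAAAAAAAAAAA
Gm11225, chr4:69965552-69965608, plus strand: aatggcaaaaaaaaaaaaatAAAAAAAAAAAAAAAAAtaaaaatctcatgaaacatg
In Mrpl23-ps1 the run is the end of the row, as in a copied poly(A) tail, whereas in Gm43960 and Gm19087 other sequence follows it.

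Gm12895 is shown whole, as the row with the most counts of all members (12671); Gm12896 is the same over the 224 bases in which the rows overlap.
Gm12895, chr4:122349003-122349228, plus strand: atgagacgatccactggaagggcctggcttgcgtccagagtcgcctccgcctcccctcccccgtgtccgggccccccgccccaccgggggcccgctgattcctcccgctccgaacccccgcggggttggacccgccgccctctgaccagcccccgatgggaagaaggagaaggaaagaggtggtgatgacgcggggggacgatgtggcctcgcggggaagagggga

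Each set had its own pattern over the fractions and genotypes. Levels below are CPM, the counts of a row scaled to a common total per library, and they say how large a share of the small RNA a sequence took, not how much RNA a cell held. Fewer cells of a type and less RNA per cell cannot be told apart in such samples. The plot of the sets by library shows 4 different patterns. The L1 set was highest in WT astrocytes, and the A-tract set varied from library to library, with its sums overlapping between genotypes in every fraction. Gm12895 and Gm12896 were highest in the neuron fraction, and Gm43841 was highest in astrocytes.

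**Figure D1:**
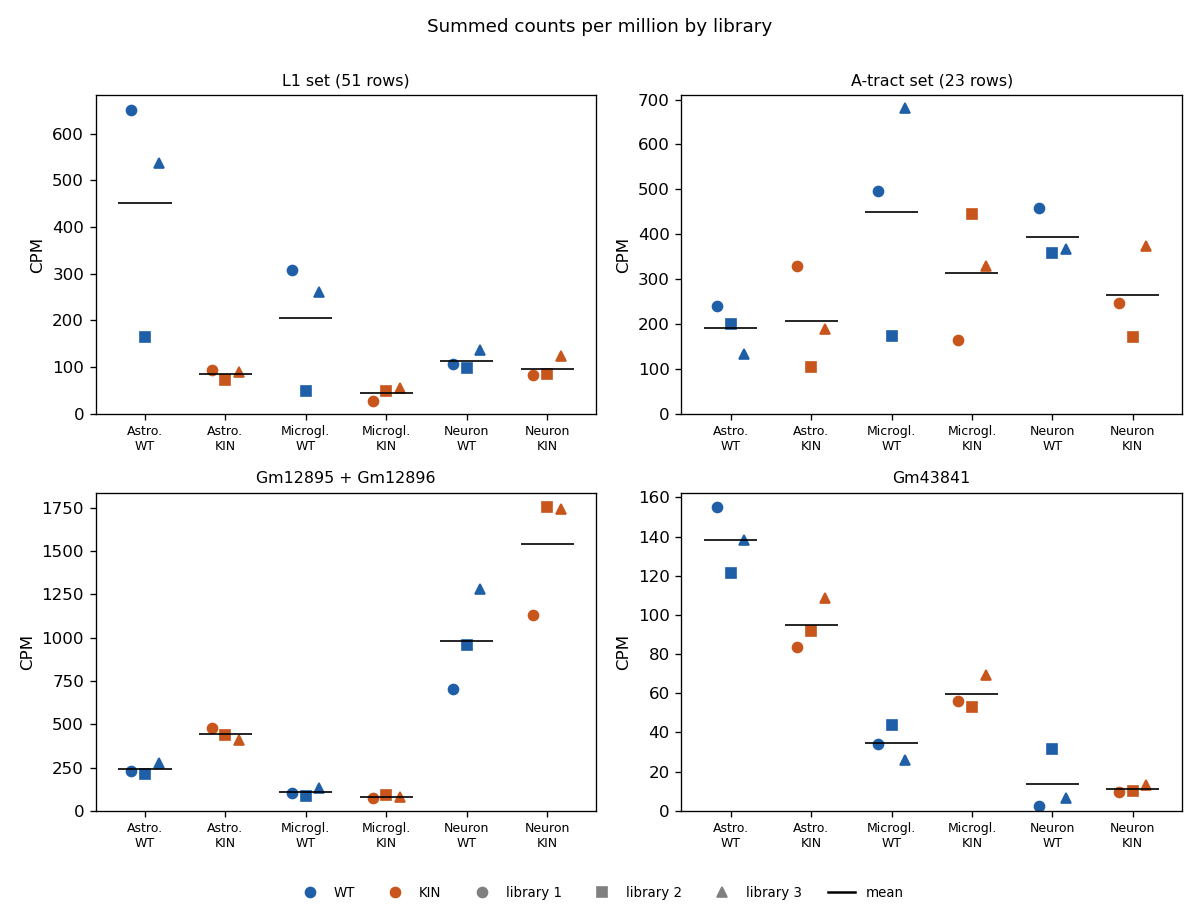
Summed CPM (linear axis from 0) of 4 sets of members in each of the 18 libraries, with WT in blue, KIN in orange, the marker shape for the library number and a line at the mean of 3 libraries. WT astrocyte libraries 1 and 3 stand at 651 and 536 CPM for the L1 set and library 2 at 164 CPM, all above the KIN astrocyte libraries at 72.2 to 93.1 CPM.

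Most rows of the L1 set fell in KIN astrocytes. Its 51 rows summed to 651, 164 and 536 CPM in the WT astrocyte libraries 1, 2 and 3 and to 93.1, 72.2 and 88.9 CPM in the KIN libraries, a mean 5.32-fold higher in WT. The groups did not overlap, and WT library 2 was far below the other WT libraries. In edgeR's quasi-likelihood test, with Benjamini-Hochberg adjustment over all 5694 features tested in astrocytes and a call from an adjusted p of 0.05 or less with a change of 1 or more on the log2 scale, 36 of the 51 rows were called lower in KIN and none higher. Of all features tested, 6.39% were called lower and 1.79% higher. The log2 fold changes of the 51 rows ran from -3.53 to -0.93 with a median of -2.24, against a median of -0.19 over all features, and in 40 of the 51 the groups did not overlap on the TMM scale of the fit (TMM, the trimmed mean of M-values, sets the library sizes), against 21.5% of all features with KIN lower in every library. The rows share reads, so these counts are closer to 1 measurement than to 51. The count rule also picked them largely through WT glia, where 47 of the 51 had 5 counts in 5 or more of the 6 libraries. Their share of calls is thus no like-for-like match to that of all features. Among the 43 members with 5 counts in 12 or more libraries, 13 L1 rows were called lower. The same limit holds below for microglia and for WT neurons against WT astrocytes. All 51 kept a negative log2 fold change with library totals, miRNA-based scaling or DESeq2's scaling in place of TMM, with medians between -2.97 and -2.18.

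Among the members called lower, those with the smallest adjusted p values were of this set. Gm45038 (chr7:93172267-93176104, plus strand, outside annotated genes) had 15.6, 5.53 and 10.9 CPM in WT astrocytes and 1.74, 1.67 and 1.07 CPM in KIN astrocytes; edgeR put the log2 fold change at -2.66 ± 0.46 (SE), adjusted p 0.0104. Gm48501, in an intron of Sugct on the opposite strand, had 18.8, 5.02 and 15.8 CPM in WT and 1.16, 1.67 and 1.61 CPM in KIN; edgeR put the log2 fold change at -2.96 ± 0.52, adjusted p 0.0111. In both rows every WT library was above every KIN library, and WT library 2 was the lowest of WT. Gm48111 (-2.78 ± 0.49), Gm47036 (-2.01 ± 0.39) and Gm47103 (-2.80 ± 0.56) followed, with edgeR adjusted p values of 0.0111, 0.0164 and 0.0173. Gm47932 had 8.27, 2.76 and 8.20 CPM in WT and 0, 2 and 3 counts in KIN, which is at or under the floor of 3 counts per library, so it was at least 7.65-fold lower. WT library 2 was the lowest of the WT astrocyte libraries in 51 of 51 rows, and in CPM by library totals it still lay above every KIN library in 42 of them; Gm42785 and Gm48418 are the rows that overlap on the TMM scale and not in CPM.

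The number of calls in astrocytes depended on which libraries were used. Over all members, 39 of the 82 that passed the count filter of the astrocyte fit were called, 38 of them lower, and 55 had an unadjusted p under 0.05, while 8.18% of all tested features were called. Leaving out WT library 2 raised the count to 55, with all 51 L1 rows lower and the summed L1 level 7.00-fold higher in WT. Leaving out WT library 1 or 3 brought it to 2, and leaving out any of the KIN libraries brought it to 1, with the fold at 4.13 or more throughout. Without WT library 1 only 1 L1 row was still called, and without WT library 3 or any of the KIN libraries none was. A fit of all 18 libraries called 22. With the replicate number as a block 51 were called, whereas in microglia the block gave 0.

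A difference of like size was seen in L1-rich rows that the count rule had not picked. A further 27 processed pseudogene rows below the rule had at least 50% of their 20-base words in the L1 set. They were chosen for these shared words, so reads of the same sequence can fall on either set. Their sum is therefore no separate measurement. These 27 rows summed to 66.5, 12.3 and 47.4 CPM in WT astrocytes and to 7.9, 6.4 and 8.1 CPM in KIN astrocytes, 5.65-fold higher in WT. The 36 piRNA entries with L1 sequence, which were placed before any pseudogene, had 113.5, 29.4 and 87.1 CPM in WT and 14.8, 11.4 and 15.6 CPM in KIN, 5.50-fold higher in WT. In both readouts the groups did not overlap and WT library 2 was again the lowest of WT, above KIN. Processed pseudogene rows below the rule without L1 sequence or an A-tract, Rpl and Rps rows left out, also differed, but less. They summed to 268.4, 120.6 and 212.8 CPM in WT astrocytes and to 134.1, 88.1 and 94.6 CPM in KIN astrocytes. That was 1.90-fold higher in WT with overlap, and in microglia it was 1.80-fold, also with overlap. The other 47071 piRNA entries with a sequence, of which 922 had any count, differed 1.10-fold in their sum. In the edgeR fit, 8 of the 24 L1-rich piRNA entries tested were called lower (33.3%), with a median log2 fold change of -2.60. Of 112 other piRNA entries tested 13 were called (11.6%), 12 of them lower, and their median was -0.66. As an example, mmu-piR-30818 had 18, 14 and 15 counts in WT astrocytes and 6, 5 and 7 counts in KIN astrocytes, with no overlap. The log2 fold change of mmu-piR-30818 was -1.30 ± 0.39, with an edgeR adjusted p of 0.0573.

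L1 sequence therefore lay in features of several types. Of 50 L1-rich features that were tested in astrocytes and are no members, 19 were called lower (38.0%), with a median log2 fold change of -2.41. They included antisense, lincRNA and piRNA entries, and all L1-rich features together made up 15.1% of the 364 features called lower in KIN astrocytes. Over whole types, with their L1-rich features included, fragments of protein coding transcripts had a median log2 fold change of -0.64. Antisense transcripts had -1.03, and lncRNA and lincRNA together -1.17 with 10.9% called. Of 16 unprocessed pseudogenes 1 was called, which is L1-rich itself.

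**Figure D2:**
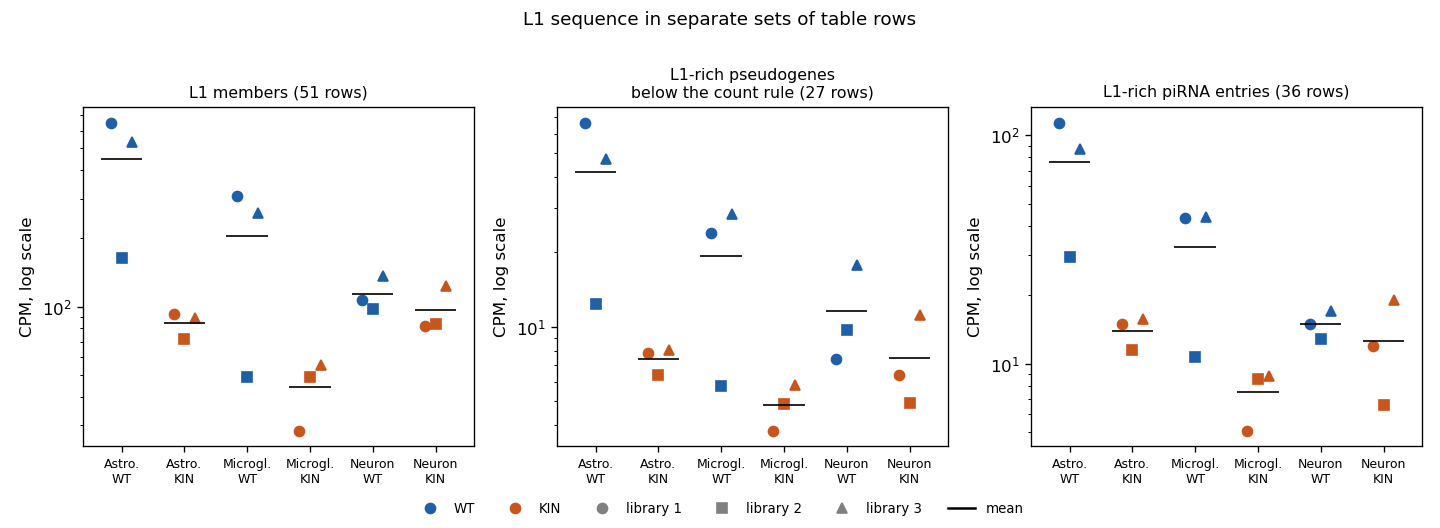
Summed CPM on a log axis for 3 sets of rows that hold L1 sequence, in each of the 18 libraries; the line is the mean of 3 libraries. In each of the 3 panels WT astrocyte library 2 (164, 12.3 and 29.4 CPM) and WT microglia library 2 (48.9, 5.8 and 10.7 CPM) are lowest among the WT libraries of their fraction.

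Several other measures of these libraries moved with the L1 set and some did not, and their part in the result was not tested. WT astrocyte libraries 1, 2 and 3 held 32670, 27657 and 32839 features with a count, against 21874 to 23544 in KIN, at like totals. Summed fragments of 16 neuronal mRNA markers, none of them at 0 in WT astrocytes, were 51.2, 35.7 and 51.9 CPM in WT astrocytes and 15.9 to 17.5 CPM in KIN astrocytes. In microglia they were 21.0, 4.319 and 22.9 CPM in WT and 0.233 to 4.401 CPM in KIN, with Syt1, Nefm, Nefh and Stmn2 at 0 in KIN. WT microglia library 2 was thus low in neuronal fragments as it was in L1 sequence. In astrocytes 2 neuronal miRNAs summed to 1263, 3030 and 1332 CPM in WT libraries 1, 2 and 3. KIN astrocytes had 868 to 1821 CPM, so the genotypes overlapped, and WT library 2 was the highest. In microglia these miRNAs were at 144, 57.3 and 141.8 CPM in WT and 41.9 to 46.8 CPM in KIN. Fragments of 10 astrocyte markers also differed, at 320.0 to 374.6 CPM in WT and 96.4 to 128.5 CPM in KIN astrocytes.

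In microglia the L1 set moved in the same direction, and the libraries overlapped. Its rows summed to 308.1, 48.9 and 260.4 CPM in WT and to 28.3, 48.9 and 54.9 CPM in KIN, a mean 4.68-fold higher in WT. WT library 2 lay within the range of the KIN libraries, and the other WT libraries were far above it. Of the 84 members tested, 1 was called, and 4.35% of all 4940 features tested were called, 2.94% as lower; 37 members had an unadjusted p under 0.05. All 50 L1 rows that were tested had a negative log2 fold change under each of the 4 scalings, with a median of -1.94 and a range from -2.94 to -0.96, and in 18 of them the groups did not overlap on the TMM scale, against 13.8% of all features with KIN lower. The row called was Gm44715 (chr7:92818041-92821879, plus strand), with 19, 8 and 14 counts in WT and 2, 3 and 3 counts in KIN, at least 4.94-fold lower, and an edgeR adjusted p of 0.0438. Leaving out WT library 2 raised the called members to 47, of which 45 were L1 rows lower in KIN, and the fold of the sum to 6.46; leaving out any other library gave 0 or 1. Outside the members, the L1-rich piRNA entries had 43.2, 10.7 and 43.6 CPM in WT microglia and 5.1, 8.6 and 8.8 CPM in KIN microglia, 4.33-fold higher in WT and without overlap. In the edgeR fit none of the 12 L1-rich piRNA entries tested was called, with a median log2 fold change of -2.32. Of 98 other piRNA entries 7 were called, all lower, with a median of -0.56. The 27 L1-rich rows below the count rule had 23.9, 5.76 and 28.4 CPM in WT microglia and 3.81, 4.86 and 5.82 CPM in KIN microglia, with WT library 2 just under the highest KIN library.

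No member was called in both glial fractions. Of the 51 L1 rows, 50 were tested in both glial fractions, and all 50 had a negative log2 fold change in each of them. The difference between the genotype effects of microglia and astrocytes was tested in 1 fit, which called none of 85 members tested, against 0.312% of 7053 features; 4 members had an unadjusted p under 0.05, and DESeq2 called 2. The L1 rows had a median difference of 0.38 on the log2 scale (microglia minus astrocytes), with a median SE of 0.98, so differences of this size could not be resolved.

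**Figure D3:**
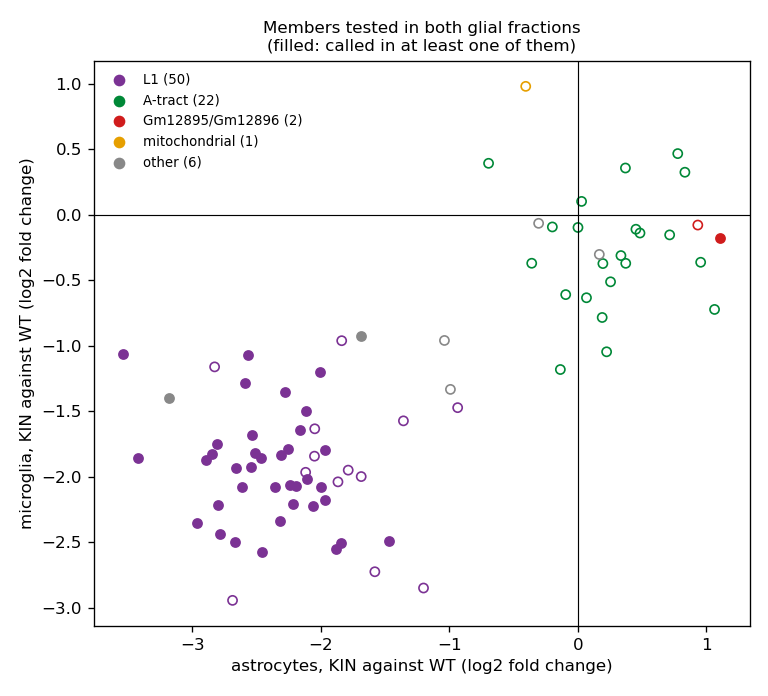
Log2 fold change of KIN against WT in astrocytes (horizontal) and microglia (vertical) for each member tested in both, by set; filled points were called in at least 1 of the fractions. The 50 L1 rows all lie at negative values on both axes, the A-tract rows lie around 0, and Gm43841 is negative in astrocytes (-0.41) and positive in microglia (0.98).

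In the neuron fraction the L1 set showed no difference of that size. Its rows summed to 106.5, 97.6 and 136.2 CPM in WT and to 82.3, 84.0 and 123.3 CPM in KIN, 1.17-fold higher in WT with overlap. None of the 63 members tested was called by edgeR or DESeq2, 4 had an unadjusted p under 0.05, and 0% of the 4535 features tested were called. The 31 L1 rows tested had a median log2 fold change of -0.26. The fraction is named by its label, although markers of other cells were high in it: 5 choroid plexus and ependymal markers summed to 406.5 to 969.6 CPM in its WT libraries, against 13.9 to 45.2 CPM in WT glia, and 2 neuronal miRNAs to 47.9 to 209 CPM against 1263 to 3030 CPM in WT astrocytes. The 16 neuronal mRNA markers ran the other way, at 47.8 to 96.6 CPM in WT neurons against 35.7 to 51.9 CPM in WT astrocytes and 4.319 to 22.9 CPM in WT microglia.

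Within the L1 set the levels were alike. Summed over 18 libraries a row had 64 to 306 counts, with a median of 196, and no row had 5 counts in all libraries. Lengths ran from 820 to 3853 bases, 32 rows, called full-length here, had 3628 to 3853 bases, and the longest open frame had 1281 codons. In 10 rows a frame of 1079 codons or more was left, the form of an uninterrupted second L1 reading frame. The 9 full-length rows with such a frame had 209 to 306 counts and a median of 98.6% of their 20-base words in other L1 rows, whereas the 23 full-length rows with shorter frames had 82 to 284 counts and shared 69.2%. A further 7 rows of 1090 to 1141 bases had 73 to 154 counts. The best match of a row to another row of the set was 75.2% to 99.9% identical, with a median of 97.8%.

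The rows of the L1 set were scattered, yet not over all chromosomes. They lay on 8 chromosomes, 43 of the 51 on chromosomes 9, 10, 12 and 13, with 16 on chromosome 10 alone. In 33 rows no annotated gene overlapped, 17 lay in introns only and 1 overlapped an exon. L1-rich rows made up 0.781% of the 9982 processed pseudogene rows with a sequence and 58.6% of the members. The count rule leaned on WT glia, since 12 of the 51 reached 5 counts in all 6 WT glial libraries and 47 in 5 or more of them. No row had its 5-count libraries in WT glia only, and 1 had no KIN library at 5 counts.

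The A-tract set was the reverse case, with high counts and no difference between genotypes past the test. Its rows summed to 239.5, 199.5 and 133.3 CPM in WT astrocytes and to 328.6, 104.2 and 187.8 CPM in KIN astrocytes. In microglia they summed to 496.8, 173.3 and 680.3 CPM in WT and to 165.2, 444.1 and 328.7 CPM in KIN. In neurons they summed to 459.1, 358.3 and 366.6 CPM in WT and to 246.6, 170.1 and 374.0 CPM in KIN. Libraries of a group differed up to 3.93-fold and the genotypes overlapped in every fraction. None of the 22, 23 and 22 rows tested in astrocytes, microglia and neurons was called. Their median log2 fold change in astrocytes was 0.24 with TMM and -0.38 with miRNA-based scaling, so no direction is given there. In microglia it was -0.31 and in neurons -0.61. In neurons 21 of the 22 rows were below 0 by each scaling. In 5 of them the groups did not overlap with KIN lower, against 5.89% of all features. The rows moved together by library, so these are not separate measurements.

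Single rows of the A-tract set moved with the library. In Gm43960 (chr6:10804828-10809847, in an intron of Gm35822) the levels were 218, 68.5 and 294 CPM in WT microglia and 66.7, 178 and 133 CPM in KIN microglia. Microglia libraries WT 2 and KIN 1 were the lowest of their groups in Gm43960, in Gm19087 and in Mrpl23-ps1 alike. Over the 23 rows, WT microglia library 2 was the lowest of its group in 21 and KIN microglia library 1 in 22. Gm2961 had 8, 7 and 5 counts in WT astrocytes and 22, 6 and 9 counts in KIN astrocytes, and Gm4034 had 10, 8 and 3 counts in WT and 19, 7 and 16 counts in KIN. KIN library 1 was the highest in both, and the edgeR adjusted p values were 0.240 and 0.179.

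The length of the run went with the count of the row. Among processed pseudogenes that are neither L1-rich nor Gm12895, Gm12896 or Gm43841, all 13 rows with a run of at least 30 bases of A or T were members, with 147 counts or more. Of 29 rows with a run of 25 to 29 bases 8 were members (27.6%), of 31 rows with 20 to 24 bases 2 were, of 82 rows with 15 to 19 bases 1 was, and of 9746 rows with shorter runs 9 were. The median count was 0 in the last class, 31 at 25 to 29 bases, 239 at 30 to 34 bases and 2629 in the 3 rows with 40 bases or more. The run was of A in 19 members and of T in 4 on the strand of the row. Since the files hold 1 count per row, whether the reads lay in the runs was not tested.

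**Figure D4:**
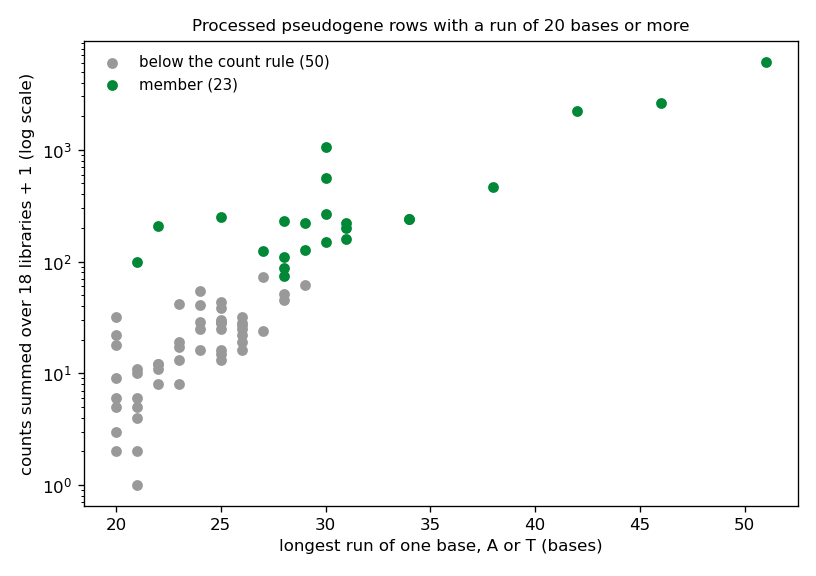
Longest run of A or T in a processed pseudogene row (bases) against its counts summed over 18 libraries, plus 1, on a log axis, for the 73 rows with a run of at least 20 bases that are not L1-rich; members are green and other rows grey. Every row at 30 bases or more is a member, and the rows with the 3 longest runs, of 42, 46 and 51 bases, have 2208, 2629 and 6065 counts.

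The counts of A-tract rows and of their source genes differed from pair to pair. Gm6475, a copy of Cd2ap, had 147 counts against 119 on Cd2ap, and Gm13423, a copy of the nucleolar protein gene Npm1, had 127 against 161 on Npm1. Others were far apart. Mrpl23-ps1, a copy of the mitochondrial ribosomal protein gene Mrpl23, had 2208 counts, and the 7 transcript rows of Mrpl23 had 19 in all. Gm12792, a copy of the kinase gene Map2k3 with a run of 30 A, had 556 counts against 13 on Map2k3, and Gm11225, a copy of the valine pathway gene Hibadh, had 700 against 1962 on Hibadh. Rpl7a, a ribosomal protein gene, had 471753 counts and its copy Gm15515, with a run of 31 A, had 200. Over the 22 members outside the L1 set with a matching gene (at least 80% identity over 50% of the row), the 20 genes gave 13 transcript rows tested in astrocytes, of which 1 was called, of Cd2ap, an adaptor protein of the actin cytoskeleton. None of 15 in microglia and none of 21 in neurons was called.

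Gm12896 was the member that rose in KIN astrocytes. It had 117, 98.2 and 131 CPM in WT and 239, 234 and 206 CPM in KIN; edgeR put the log2 fold change at 1.11 ± 0.14, adjusted p 0.00434, higher in 3 of 3 KIN libraries than in any WT library. Gm12895, its near-identical partner, had 116, 114 and 143 CPM in WT and 241, 205 and 204 CPM in KIN; edgeR put the log2 fold change at 0.93 ± 0.14, adjusted p 0.00667, just short of the size a call needs. The groups did not overlap in either row, against 14.8% of all features with KIN higher. The call depended on the scaling: the log2 fold change of Gm12896 was 0.97 with library totals and 0.47 with miRNA-based scaling, the latter with an edgeR adjusted p of 0.142, and no scaling turned its sign.

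In the other fractions the pair showed no call by genotype. Their sum was 100.5, 86.1 and 131.4 CPM in WT microglia and 73.7, 93.8 and 80.5 CPM in KIN microglia, with overlap. In neurons it was 701.8, 960.9 and 1283.7 CPM in WT and 1132.8, 1755.0 and 1743.1 CPM in KIN, 1.57-fold higher in KIN with overlap, and the edgeR adjusted p of each row was 0.917. The difference between the genotype effects of microglia and astrocytes was -1.28 ± 0.29 for Gm12896 and -1.01 ± 0.29 for Gm12895, with edgeR adjusted p values of 0.0601 and 0.136.

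The pair is set apart by its sequence. Both rows are 226 bases long, with 72.1% and 71.2% G and C, and lie 392.9 kb apart on the plus strand of chromosome 4, outside annotated genes. The counts of Gm12895 were 0.848 to 1.16 times those of Gm12896 in the 18 libraries, with a median of 1.00. The genome held 2 exact copies of the sequence, the rows themselves, and 6 partial matches, the best with 78.1% identity over 137 bases. No annotated messenger RNA matched the rows.

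Gm43841 (chr5:7326324-7326909, plus strand, in an intron of Zfp804b on the opposite strand) is 83.5% identical to the mitochondrial gene mt-Cytb, which encodes cytochrome b of respiratory complex III, over 93.9% of its length. It had 155, 121 and 138 CPM in WT astrocytes and 83.8, 92.0 and 109 CPM in KIN astrocytes. In microglia it had 118, 153 and 95 counts in WT (25.9 to 44.0 CPM) and 177, 229 and 298 counts in KIN (53.0 to 69.4 CPM). The genotypes did not overlap in either fraction, and they were in opposite order. The log2 fold changes were -0.41 ± 0.16 in astrocytes and 0.98 ± 0.30 in microglia, with edgeR adjusted p values of 0.108 and 0.0896, neither of which passed. The difference between them was 1.37 ± 0.37 in the fit of both fractions, with an edgeR adjusted p of 0.114. The row of mt-Cytb itself had log2 fold changes of -0.36 ± 0.19 and 0.15 ± 0.30, with edgeR adjusted p values of 0.199 and 0.840.

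Of the 10 members in no set, 6 were tested in astrocytes and 2 were called lower, Gm13722 and Gm48368, beside 6.39% of all features. The best match of Gm48368 among messenger RNAs was Nopchap1, which was also the best match of 29 of the 51 L1 rows. Gm13722 holds L1 sequence over 21.5% of its length, at 97.6% identity to the L1 set, too little for the set. Gm13722 had 8.27, 1.51 and 5.46 CPM in WT astrocytes and 0.291, 0.836 and 0.269 CPM in KIN, with each KIN library at or under 3 counts. Gm48368 had 10.8, 4.52 and 10.9 CPM in WT and 3.49, 1.39 and 2.42 CPM in KIN, a log2 fold change of -1.69 ± 0.45 and an edgeR adjusted p of 0.0412. WT library 2 was the lowest of WT in both, as in the L1 set. In microglia Gm15039, which resembles Cdc20, a regulator of the anaphase-promoting complex, had 3, 4 and 5 counts in WT and 16, 10 and 8 counts in KIN; edgeR put the log2 fold change at 1.63 ± 0.59, adjusted p 0.129, without overlap, against 13.2% of all features with KIN higher in microglia. Gm19194, of the A-tract set, had a log2 fold change of 0.47 ± 0.57 in microglia, with overlap.

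In neurons the members with the smallest p values were Gm19220, Gm12792 and Gm2961, all below 0 and none called. Gm19220, whose nearest gene is the acetyltransferase Naa10, had 33.9, 17.4 and 19.6 CPM in WT and 8.96, 10.3 and 7.84 CPM in KIN, a log2 fold change of -1.38 ± 0.43 without overlap. Gm12792 and Gm2961 had log2 fold changes of -1.46 ± 0.55 and -1.12 ± 0.49. The edgeR adjusted p was 0.917 for each, and 5.89% of all features had KIN lower without overlap.

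Of the comparisons between WT fractions, neurons against astrocytes gave the most called members. In it 42 of 85 tested members were called, 6 higher and 36 lower, beside 28.7% of all features tested, 10.2% higher and 18.5% lower. The L1 set gave 34 of the lower calls, with a median log2 fold change of -2.22, but this depended on the scaling: with miRNA-based scaling, which moved the median of all features by 2.05, the median was -0.29, 18 of 51 rows were positive and no row was called. Relative to all features, whose median was -0.50 with TMM, the L1 rows were lower by either scaling. Leaving out WT astrocyte library 1 or 3 gave 7 or 8 called members, and leaving out neuron library 1 or 3 gave 13 or 12. Gm12895 and Gm12896 were higher in neurons than in astrocytes by 1.77 ± 0.34 and 1.89 ± 0.30 and than in microglia by 3.08 ± 0.39 and 3.00 ± 0.37 on the log2 scale, with the same sign by every scaling.

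Microglia against astrocytes gave 8 called members of 83 tested, 4 in each direction, beside 31.5% of all features, 12.2% higher and 19.3% lower. The A-tract rows were mostly higher in microglia, 22 of 23 with a positive log2 fold change by each scaling and a median of 1.06, and 4 were called, among them Gm43960 (1.52 ± 0.40) and Gm19087 (1.10 ± 0.37) with edgeR adjusted p values of 0.0128 and 0.0373. The 51 L1 rows were all negative, with a median of -1.04 and 2 called, Gm45038 and Gm47932. With the replicate number as a block 41 members were called, 29 of them L1 rows, all lower in microglia. The labels do not say whether a number marks a brain. Gm43841 was lower in microglia by -1.84 ± 0.31 and in neurons by -3.47 ± 0.77 than in astrocytes, with edgeR adjusted p values of 0.00140 and 0.0127. Its WT neuron libraries had 3, 62 and 10 counts, a wide spread. The mt-Cytb row had -1.15 ± 0.28 in microglia and -0.08 ± 0.36 in neurons, so it followed Gm43841 in the former only. Leaving out WT astrocyte library 2 or WT microglia library 2 gave 13 called members each, leaving out astrocyte library 3 gave 2, and leaving out microglia library 1 or 3 gave 5.

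Neurons against microglia gave 8 called members of 85 tested, 6 of them higher, beside 28% of all features, 13.5% higher. Among them was Gm9794, 99.8% identical to the ribosomal protein gene Rpl23, with 8, 4 and 9 counts in WT neurons, 0, 0 and 2 in WT astrocytes and 1, 1 and 0 in WT microglia. It was at least 5.55-fold higher than in astrocytes and at least 5.71-fold higher than in microglia against a floor of 3 counts per library. Gm9794 met the count rule chiefly through neuron libraries, with 5, 5 and 5 counts in KIN neurons as well. Its higher level in neurons thus follows in part from the rule, and WT neuron library 2, at 4 counts, was close to the floor. Gm19220 was higher in neurons than in either glial fraction, by 1.70 ± 0.45 and 1.94 ± 0.48 on the log2 scale, with edgeR adjusted p values of 0.0243 and 0.0140. Without WT microglia library 2 the count was 15, without library 1 or 3 of the microglia it was 3 or 4, and without neuron library 1 or 3 it was 4 or 5.

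**Figure D5:**
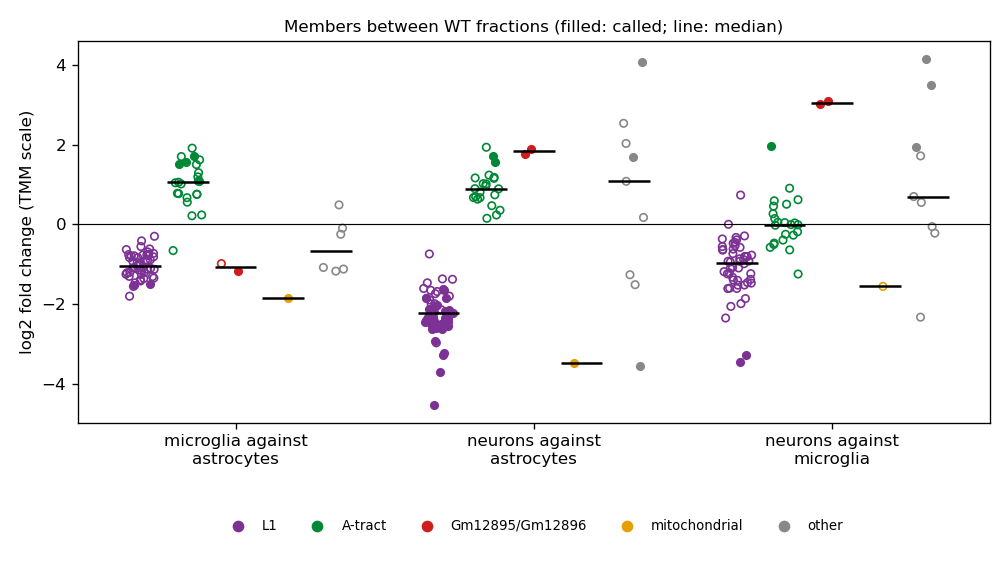
Log2 fold change (TMM scale) of the members tested in 3 comparisons of WT fractions, by set, with filled points for called members and a line at the median of each set. The L1 rows lie below 0 and all A-tract rows but 1 above it in both comparisons with astrocytes; the L1 median of neurons against astrocytes is -2.22 here and -0.29 with miRNA-based scaling.

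The rule's edge ran through rows of each kind. Just inside it, with 5 counts in exactly 6 libraries, were Gm6210 and Gm9794 with 47 counts each and Gm48366 of the L1 set with 64. Just outside, with 5 counts in 5 libraries, were 9 rows, led by Gm43498 (L1-rich) with 94 counts, Gm2522 with 93 and Gm49858 with 92. In Gm2522, 36 of the 93 counts were in WT microglia library 3.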

How the data were processed

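Small RNA of 18 libraries was analysed from the raw counts per row that the authors deposited. Per the labels and the study's methods, reads were trimmed with Cutadapt 4.6 and placed with Bowtie2 2.4.4 in local mode on mature miRNAs, then tRNAs, piRNAs, noncoding and coding transcripts of mm39, and counted with HTSeq 2.0.2 without strand, so that reads of near-identical rows, or of overlapping rows on opposite strands, cannot be assigned. The kit carries molecular identifiers, and whether they were collapsed is not given in the sources used here. The 36 per-library columns of other scales and the authors' columns of means, fold changes and p values (DESeq2) were not used.

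The members and lists were chosen with earlier results of these data known, and the sequence sets after their counts were seen. Sequences came from GENCODE vM39 (GRCm39), compared with blastn 2.17.0. Each comparison had its own fit in edgeR 4.0.16 (R 4.3.3, limma 3.58.1; TMM, 5 counts in at least 2 libraries, quasi-likelihood test), adjusted over all features tested and tested on simulated counts. The members named were the called members with the smallest p per direction, the 8 with the most counts, those that moved against the others, those highest in 1 fraction and those at the count rule's edge; Gm48128, Gm13722, Gm48368 and others beyond this were chosen after their values were seen. The labels number the libraries as biological replicates without naming the animals, so p values measure the spread between these libraries. Littermate pairs and shared brains entered no main fit. The replicate block accounts for them only if the number marks them, which the labels do not state. The ± values are standard errors from the edgeR fit and include the spread between libraries, while the floors (3 counts) cover counting error only. The same-numbered WT neuron and WT astrocyte libraries deviated together (r of 0.21 to 0.42 over 2534 features). Values were also all positive for WT microglia and astrocytes (0.08 to 0.44) and for WT neurons and microglia (0.03 to 0.35). The same held for KIN and WT astrocytes (0.06 to 0.20). Alternatives were library totals, miRNA-based TMM, DESeq2 1.42.0, other filters, a fit of all 18 libraries, a replicate block, stricter member rules and leaving out each library; the one without WT number 2 in both glial fractions was added after seeing the data.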

Additional observations from a re-analysis of the deposited data

Results flagged for a closer look

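The genotypes of Gm43841 were in opposite order in the glial fractions, with every KIN library lower in astrocytes and higher in microglia, a gap of 1.38 between the log2 fold changes of the separate fits. Tested in 1 edgeR fit of both fractions the gap was 1.37, with an adjusted p of 0.114. Gm48269, of the L1 set, had every KIN library lower in astrocytes (36, 9 and 27 counts in WT against 4, 1 and 7 in KIN) and higher in neurons (2, 1 and 3 against 5, 7 and 9). In microglia every KIN library was lower on the TMM scale, but in CPM by library totals KIN library 2 (1.16) was just above WT library 2 (1.15). The gaps were 3.64 between neurons and astrocytes and 2.94 between neurons and microglia, and these differences were not tested. Groups of 3 libraries were not searched for single libraries that stand apart.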

How the results depend on the processing

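The direction of the L1 set in the glial fractions held under each alternative run, while the number of called members did not. Leaving out 1 library at a time gave 1 to 55 called members for genotype in astrocytes, 0 to 47 in microglia, 2 to 13 for WT microglia against astrocytes, 7 to 50 for WT neurons against astrocytes, 3 to 15 for WT neurons against microglia and 0 to 2 for the difference between glial genotype effects. Without WT number 2 in both glial fractions the last gave 2. Members with 10 counts in 6 libraries (42 rows) and with 5 counts in 12 libraries (43 rows) gave 15 and 15 called in astrocytes, 0 and 0 in microglia, 20 and 18 for neurons against astrocytes and 4 and 4 for neurons against microglia; fewer rows are counted by construction. The fit of all 18 libraries gave 22 in astrocytes, 5 in microglia, 16 for microglia against astrocytes and 14 for neurons against microglia. With miRNA-based scaling 13 were called in microglia and 22 for neurons against microglia. DESeq2 gave 9 in microglia and 2 for the difference, and no filter gave 11 in microglia. A filter of 10 counts in 3 libraries gave 0 in microglia, 4 for neurons against microglia and 2 for the difference. Library totals gave 5 for microglia against astrocytes and 1 for the difference. With these exceptions the cause was not tested.

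The miRNA-based scaling moved the median of all features by -0.60 in astrocytes, -0.37 in microglia, 0.18 for microglia against astrocytes, 2.05 for neurons against astrocytes and 1.77 for neurons against microglia, and it turned the called members of neurons against astrocytes from 6 higher and 36 lower to 30 higher and 1 lower. Without the 5 members of highest summed count the members' mean share of a library was 0.0569% in WT and 0.0203% in KIN astrocytes, 0.0416% and 0.0194% in microglia and 0.0398% and 0.0268% in neurons. Of 366 values of named members under the alternatives, 297 stayed on the same side of the call, 68 lost it, 1 gained it and none changed sign.

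With the replicate number as a block, 51 members were called for genotype in astrocytes, 0 in microglia, 41 for WT microglia against astrocytes, 49 for neurons against astrocytes, 8 for neurons against microglia and 1 for the difference between glial effects. Same-numbered libraries correlated at 0.06 to 0.20 in astrocytes, -0.31 to 0.28 in microglia, -0.38 to -0.02 in neurons, 0.08 to 0.44 for WT microglia and astrocytes and 0.03 to 0.35 for WT neurons and microglia, and in no comparison did every library correlate best with its own number.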
